A study of Homo sapiens with 10 samples.

Results

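The circadian clock genes described here were DBP, TEF, PER1, PER2, PER3, CRY1, CRY2, NR1D1, NR1D2 and BHLHE40, taken by gene name with every array probe annotated to them. Of these 10 genes, 9 had a probe, 1 probe each, and all 9 probes were detected on at least 1 array, out of 24105 probes for 16372 named genes. No probe carried the name of TEF, a close relative of DBP, which was not analysed here. The genes were chosen by name with their signals and detection scores in these same arrays known, across all 5 groups, so every difference and p-value for them below is a description and supports no inference about clock genes as a class.

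The samples were MDA-MB-435 cells, an established human melanoma line, and 5 groups of 2 arrays each were measured on Illumina Human-8 bead arrays. One group carried transduced integrin beta4 (ITGB4), one was untreated, and 3 had been stimulated with hepatocyte growth factor (HGF), the ligand of the MET receptor, for 1 h, 6 h or 24 h. Growth conditions are described only as standard, and neither the HGF dose, the vector nor whether the transduced cells were 1 clone is given in the sources used here. All HGF groups were set against a single untreated group with no stated time of harvest, so the hours of HGF and the hour of harvest cannot be told apart in any of these comparisons, a limit that bears directly on genes with a daily rhythm. The 2 samples of a group are described as biological duplicates, and p-values measure only the spread between such samples.

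In the cell-autonomous clock, the transcription factors CLOCK and BMAL1 (ARNTL on the array) bind E-box sequences and switch on the PER and CRY genes, whose proteins return to the nucleus and repress CLOCK and BMAL1. A second loop runs through the nuclear receptors REV-ERB alpha and beta (NR1D1 and NR1D2), which repress BMAL1. DBP is itself switched on through E-boxes and activates genes with D-box sequences, so that its RNA has one of the strongest daily swings known in peripheral tissues, and BHLHE40 is a repressor that competes for E-boxes.

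The promoter letters of these genes are shown because the E-box and the D-box are the elements named above. RefSeq promoter windows of GRCh38.p14, each 250 bases before and 50 bases after a transcript start, were found for all 10 genes, with 14 windows in all. The E-box searched was CACGTG, which reads the same on both strands, and it was present in 5 of the 14 windows, of BHLHE40, NR1D2, PER1 and TEF, against 7.26% of 35116 promoters. The D-box searched was TTATGTAA or TTATGCAA on either strand, and it was present in 3 of the windows, of NR1D2, PER1 and PER3, against 1.71% of all promoters. The nuclear receptor half-site AGGTCA lay in windows of CRY2 and PER1, against 13.8% of all promoters, and the cAMP response element TGACGTCA in none of the 14, against 1.85%. Neither the E-box nor the D-box was found in the windows of DBP, PER2, CRY1, CRY2 and NR1D1. The matches did not overlap one another, and a match of letters is not a measured site. The lines below give matches of members with a probe, and those of CIART, a clock repressor measured alongside them, in the direction of transcription with the motif in capitals. The same search gave no match to any of these motifs for NOCT, TSC22D3 and KLF9, the other clock genes called below. TTACATAA is the D-box read on the other strand, and distances run from the first base of the motif to the transcript start.
PER1 E-box, chr17:8152561-8152588, minus strand, 173 bases upstream: gcacccaggtcCACGTGcgcccgtgtgt
NR1D2 E-box, chr3:23945955-23945982, plus strand, 155 bases upstream: gcgggcggggaCACGTGaggccgctcgg
NR1D2 E-box, chr3:23946005-23946032, plus strand, 105 bases upstream: ggccgcagggaCACGTGggggcgggggc
BHLHE40 E-box, chr3:4979187-4979208, plus strand, 245 bases upstream: tccaaCACGTGagactcatgtg
CIART E-box, chr1:150282414-150282441, plus strand, 129 bases upstream: gtaactagagtCACGTGttaccggcgac
CIART E-box, chr1:150282472-150282499, plus strand, 71 bases upstream: gcagggggaggCACGTGccgggccgcac
CIART E-box, chr1:150282486-150282513, plus strand, 57 bases upstream: gtgccgggccgCACGTGtctgggagggg
PER1 D-box, chr17:8152416-8152445, minus strand, 30 bases upstream: agtgcccggcaTTATGCAAcccgcctcccc
PER3 D-box, chr1:7784103-7784132, plus strand, 177 bases upstream: gagcccgcgcgTTATGTAAcgcgccccggg
NR1D2 D-box, chr3:23945916-23945945, plus strand, 194 bases upstream: gtgacgcggcaTTACATAAtgggcgctgag

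Between 42.4% and 49.4% of probes were detected per array, at a detection score of 0.99 or more, and the lowest detected normalised signal was between 86.6 and 96.5 on single arrays, with a median of 89.6, so a reading near it could be detected on one array and not on another. The ITGB4 probe read 6788 and 5023 on the ITGB4 arrays and between 59.6 and 63.8, undetected, on the remaining 8. Melanocyte lineage genes were present, with 7 of the 8 that had a probe detected on all 10 arrays, and 4 of 7 epithelial markers were detected on some array, with KRT14 and KRT18 on all 10, KRT8 on 9 and KRT5 on 5, but EPCAM, CDH1 and KRT19 on none. The first replicates of untreated cells and of each HGF group formed 4 arrays with low detection scores at their lower quartile (0.00814 to 0.0225), against 0.249 to 0.388 on the other 6, and 3 of the 10 arrays were closest to their own replicate. For members described in detail, differences are therefore also given for each of these 2 kinds of array alone, from 1 array per group in each HGF contrast. They are not given for the other clock genes.

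DBP, the D-box activator, had its lowest level at 6 h of HGF and its highest at 24 h. Its normalised signal was 220.6 and 537.0 on the ITGB4 arrays, 345.8 and 502.9 in untreated cells, 591.4 and 446.6 at 1 h, 211.3 and 221.3 at 6 h, and 632.0 and 757.8 at 24 h. Both 24 h arrays were above all 8 others, and both 6 h arrays were below every array except ITGB4 replicate 1, which lay between them. In order of group means, the 6 h, ITGB4, untreated and 1 h groups overlapped from each to the next, and only the step to 24 h was free of overlap. The probe was detected on all 10 arrays and read from 17 to 30 beads per array.

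PER1, the light- and stimulus-responsive period repressor, followed the same order of times. It read 101.3 and 146.2 on the ITGB4 arrays, 94.9 and 129.4 in untreated cells, 160.9 and 129.0 at 1 h, 81.4 and 82.4 at 6 h, and 164.5 and 196.5 at 24 h. The 6 h arrays were the lowest pair, neither of them detected, and the 24 h arrays were the highest pair.

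CRY2, 1 of the 2 cryptochrome repressors, read 118.7 and 137.7 on the ITGB4 arrays, 135.2 and 144.2 in untreated cells, 238.8 and 142.9 at 1 h, 95.2 and 92.9 at 6 h, and 176.3 and 194.5 at 24 h. Its 6 h arrays were again the lowest pair, and its 2 arrays at 1 h were far apart, with replicate 1 the highest of the 10. NR1D1, the REV-ERB alpha repressor, read 108.4 and 125.8 on the ITGB4 arrays, 108.2 and 123.1 in untreated cells, 152.6 and 119.0 at 1 h, 78.1 and 93.1 at 6 h, and 130.9 and 163.3 at 24 h. The 6 h arrays were below the other 8, while the 1 h and 24 h groups overlapped.

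**Figure D1:**
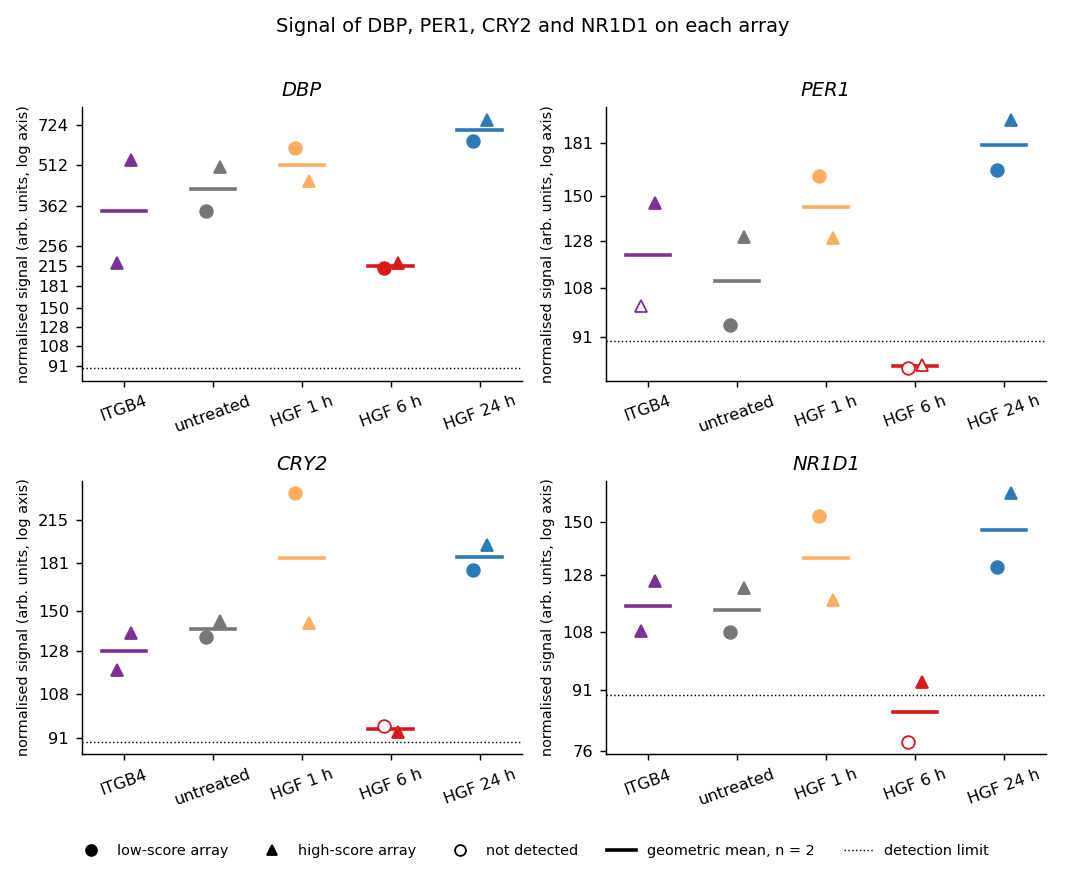
Normalised signal (arbitrary units, log axis) of DBP, PER1, CRY2 and NR1D1 on each of the 10 arrays, by group; points are arrays, open points were not detected, bars are geometric means of 2 arrays and the dotted line is the detection limit of 89.6. In each panel the 24 h arrays, with DBP at 632.0 and 757.8, stand above the 6 h arrays, with DBP at 211.3 and 221.3, which sit at or near the bottom.

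The other 5 measured genes did not share this shape in full. NR1D2, which encodes REV-ERB beta, read 91.2 and 98.0 on the ITGB4 arrays, 109.5 and 103.0 in untreated cells, 78.5 and 90.6 at 1 h, 70.6 and 61.1 at 6 h, and 99.6 and 76.5 at 24 h. Its 6 h arrays were the lowest pair and the untreated arrays the highest, but it was detected on only 5 of the 10 arrays and on neither at 6 h. PER3, a period family member that is dispensable for rhythms in mice, read 230.7 and 197.8 on the ITGB4 arrays, 230.5 and 207.5 in untreated cells, 176.3 and 196.6 at 1 h, 160.3 and 141.3 at 6 h, and 210.0 and 164.2 at 24 h. The 6 h arrays were the lowest pair, and those at 24 h overlapped both the 1 h and the untreated arrays.

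PER2, the period repressor with the strongest loss-of-function effect on mouse rhythms, was read by a probe specific to 1 isoform and stayed between 89.5 and 119.5 on all 10 arrays. It was detected on 8 of the 10, and on 1 of the 2 at 6 h. That range starts at the detection limit of 89.6, which limits how far a fall could be seen. Its 6 h arrays read 91.4 and 95.6, below both untreated arrays at 119.5 and 104.3, but ITGB4 replicate 2 was lower still. CRY1, the other cryptochrome, read 173.3 and 156.6 on the ITGB4 arrays, 188.4 and 150.7 in untreated cells, 182.6 and 161.2 at 1 h, 190.8 and 185.1 at 6 h, and 186.8 and 132.6 at 24 h. Its 6 h arrays were not low, and 6 h replicate 1 was its highest array. BHLHE40 was bright throughout, from 696.4 to 1009, with overlapping groups over the HGF times, and its ITGB4 arrays (722.7 and 739.5) were both below its untreated arrays (1008 and 795.6).

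**Figure D2:**
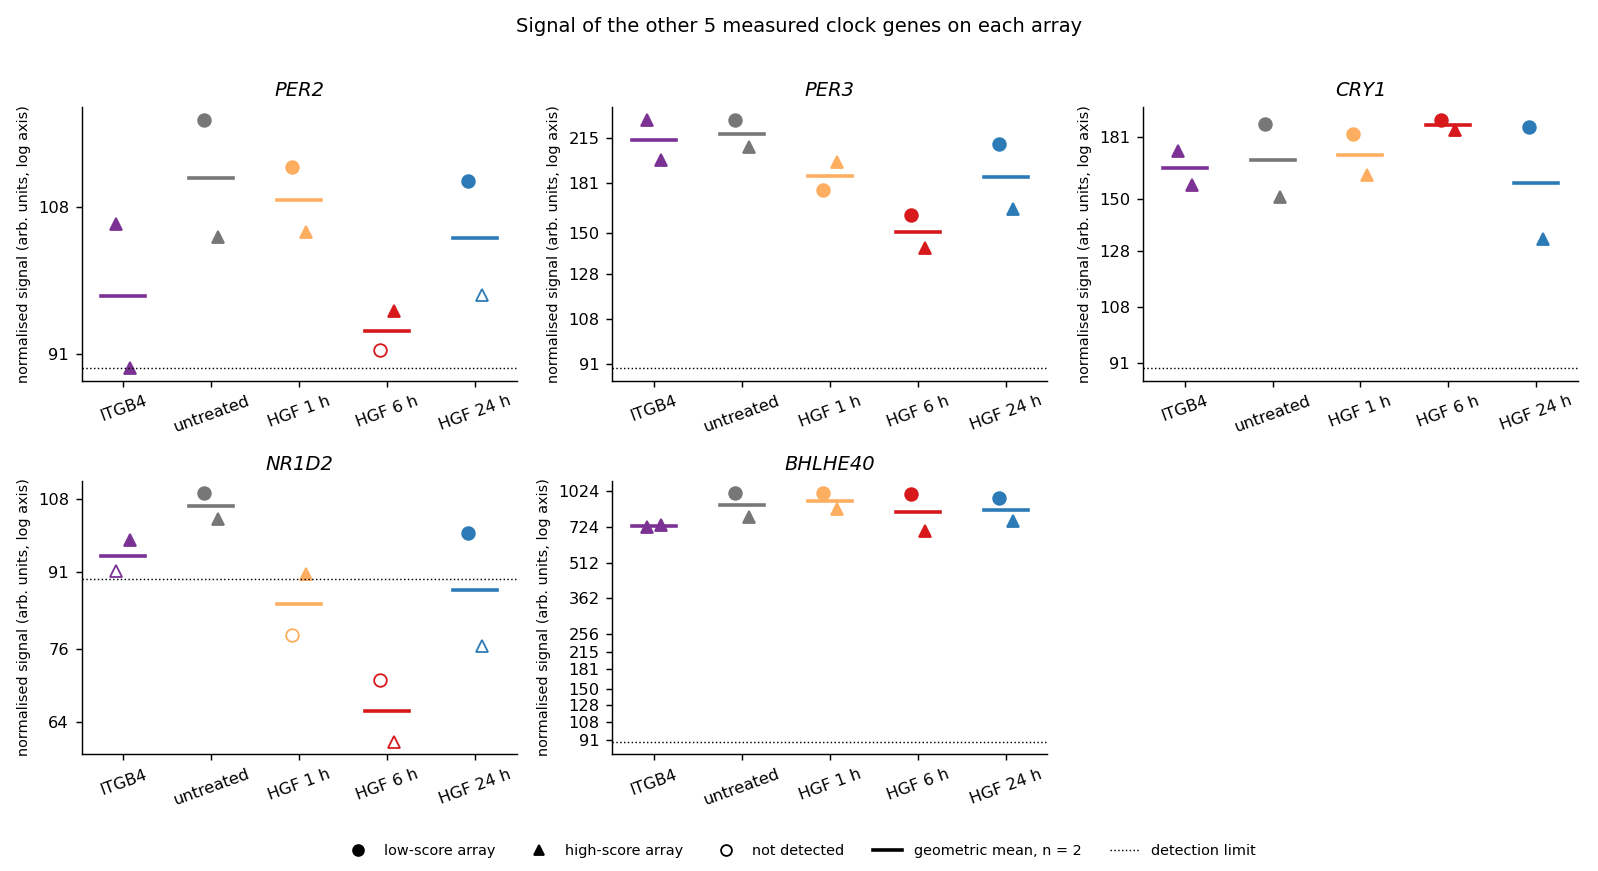
Normalised signal (arbitrary units, log axis) of PER2, PER3, CRY1, NR1D2 and BHLHE40 on each of the 10 arrays, by group, with points, bars and the dotted line as for DBP. NR1D2 and PER3 are lowest at 6 h, CRY1 is not, and BHLHE40 stays between 696.4 and 1009.

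For DBP, PER1, CRY2 and NR1D1 the difference between 24 h and 6 h of HGF was the largest of the 7 contrasts. Of the 9 probes 4 were called higher at 24 h, namely DBP, PER1, CRY2 and NR1D1, and none was called lower. Of all 14018 probes tested, 8.31% were called in this contrast, 4.24% higher and 4.07% lower. A call was a Benjamini-Hochberg adjusted p under 0.05 over all probes in limma. DBP rose by 1.68 ± 0.32 on the log2 scale (SE, 2 arrays per group), 3.20-fold, at an adjusted p of 0.00728 in limma, and was the fourth largest rise of the 14018 probes. PER1 rose by 1.13 ± 0.21 (limma adjusted p = 0.00699), at least 1.97-fold, since its 6 h arrays give only an upper bound. CRY2 rose by 0.98 ± 0.21 (limma adjusted p = 0.0134) and NR1D1 by 0.78 ± 0.19 (limma adjusted p = 0.0224).

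These rises were of like size in both kinds of array. In the low-score arrays and then in the high-score arrays alone they were 1.58 and 1.78 for DBP, 1.01 and 1.25 for PER1, 0.89 and 1.07 for CRY2, and 0.74 and 0.81 for NR1D1, each from 1 array per time. Without any 1 of the 10 arrays, DBP and PER1 were still called, with adjusted p up to 0.0407 and 0.0452 in limma. CRY2 and NR1D1 were not called without 6 h replicate 1 (adjusted p = 0.0643 and 0.172), without 6 h replicate 2 (0.081 and 0.063) or without 24 h replicate 2 (0.0556 and 0.125) in limma. With signals floored at the detection limit none of the 4 was called (limma adjusted p of 0.0541 to 0.0657). All readings of DBP and CRY2 lay above that floor, so their differences stayed at 1.68 and 0.98 while their calls were lost. The authors' background-subtracted values gave larger differences of 2.04 for DBP, 2.85 for PER1, 2.05 for CRY2 and 1.94 for NR1D1, the last not called (limma adjusted p = 0.0577).

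Of the 5 probes not called between 24 h and 6 h, NR1D2 differed by 0.41 ± 0.17 (limma adjusted p = 0.187) and PER3 by 0.30 ± 0.18 (0.376). With all arrays floored at the detection limit NR1D2 differed by 0.08, and that floor raised its undetected 24 h replicate 2 as well as both 6 h arrays. CRY1 differed by -0.26 (95% interval -0.67 to 0.16) and BHLHE40 by 0.04 (95% interval -0.40 to 0.48). The rise of 0.78 called for NR1D1 had a 95% interval of 0.37 to 1.18, which overlapped that of BHLHE40 but not that of CRY1. Differences between genes were not tested. Over the 9 probes the median difference was 0.41, beside 0.00 over all probes, and for 7 of them both 24 h arrays were above both 6 h arrays, as for 22.5% of all probes.

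Between 6 h and 1 h the called genes moved the other way. DBP, CRY2 and PER1 were called lower at 6 h, 3 of the 9, and none was called higher, where 4.67% of all probes were called, 2.43% lower and 2.24% higher. DBP fell by 1.25 ± 0.32 on the log2 scale (limma adjusted p = 0.0454), CRY2 by 0.97 ± 0.21 (0.0246) and PER1 by 0.81 ± 0.21 (0.0481), at least 1.58-fold lower for PER1. NR1D1 differed by -0.66 ± 0.19 and was not called (limma adjusted p = 0.0615), though it was with the kind of array as a block (0.0216), where 12.1% of all probes were called. It was also called with detection required on both arrays of a group (limma adjusted p = 0.0462) and without either 24 h array. Calls over all probes in those fits are not given here for this contrast. The median of the 9 was -0.36, beside -0.01 over all probes, and CRY1 alone had a positive value, of 0.13. For 7 of the 9, both 6 h arrays were below both 1 h arrays, as for 25.9% of all probes.

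The falls between 6 h and 1 h rested on few arrays. In the low-score arrays and then in the high-score arrays alone they were -1.49 and -1.01 for DBP, -1.33 and -0.62 for CRY2, and -0.98 and -0.65 for PER1, and NR1D1 differed by -0.97 and -0.35. None of the 3 was called without 1 h replicate 1 (limma adjusted p of 0.425 for DBP, 0.306 for CRY2 and 0.429 for PER1), without 6 h replicate 1 (0.185, 0.114 and 0.202 in the same order) or without 6 h replicate 2 (0.145, 0.123 and 0.168), and without 1 h replicate 2 only CRY2 was. With the floor at the detection limit no call was left (limma adjusted p of 0.153 for DBP, 0.076 for CRY2 and 0.155 for PER1), and with no detection filter only CRY2 was called (0.0383). The floor left the differences of DBP and CRY2 unchanged, since all their readings lay above it. The authors' values gave -1.53 for DBP, -1.99 for CRY2 and -2.22 for PER1, the last not called (limma adjusted p = 0.0649).

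For 7 of the 9 probes, all but CRY1 and BHLHE40, both 6 h arrays were below both 1 h and both 24 h arrays, as for 17.0% of all probes. The 3 genes called lower between 6 h and 1 h were also called higher between 24 h and 6 h, as were 1.83% of all probes. Both contrasts use the same 6 h arrays, so the fall and the rise are not independent of one another. The rule for choosing the genes drew on these contrasts, so nothing is read from those shares.

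Set against untreated cells, none of the 9 probes was called at any time of HGF. At 6 h, where 1.9% of all probes were called, 5 of the 9 had an unadjusted p under 0.05 in limma, as did 16.0% of all probes, and 7 had both 6 h arrays below both untreated arrays, as for 23.9% of all probes. The differences were -0.95 ± 0.32 for DBP (limma adjusted p = 0.153), -0.69 ± 0.17 for NR1D2 (0.0604), -0.57 ± 0.21 for CRY2 (0.189) and -0.54 ± 0.18 for PER3 (0.136). PER1 and NR1D1 each differed by -0.44 (0.344 and 0.266), and CRY1 by 0.16. PER1 and NR1D2 were detected on neither 6 h array, and as bounds they were at least 1.21-fold and 1.16-fold lower there. In the low-score arrays and then in the high-score arrays alone the differences were -0.71 and -1.18 for DBP, -0.22 and -0.65 for PER1, -0.63 and -0.75 for NR1D2, and -0.52 and -0.55 for PER3. The median over the 9 was -0.44, beside 0.01 over all probes. With the low-score and high-score arrays as a block 2 were called, NR1D2 (limma adjusted p = 0.0155) and PER3 (0.0451), in a fit that called 7.6% of all probes. Without either 24 h array NR1D2 was called, and calls over all probes were more numerous too. The 8 melanocyte lineage markers with a probe had their lowest summed signal at 6 h too, 17588 to 18942, against 24451 to 27791 in untreated cells and 20358 to 27791 over all other arrays. The part of that shift in the differences at 6 h was not tested, and in bulk samples fewer cells of a type and less RNA per cell cannot be told apart.

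At 24 h against untreated cells, where 0.0% of all probes were called, 2 of the 9 had an unadjusted p under 0.05 in limma, as did 5.71% of all probes. DBP differed by 0.73 ± 0.32 and PER1 by 0.70 ± 0.21 (limma adjusted p = 0.857 for both), positions 8 and 11 from the top of the 14018 probes, with both 24 h arrays above both untreated arrays for each. CRY2 and NR1D1 differed by 0.41 and 0.34, also without overlap, as for 14.9% of all probes. The other 5 differences were negative, down to -0.28 for NR1D2, whose 24 h arrays were both below both untreated arrays. The median over the 9 was -0.06, beside 0.01 over all probes. In the low-score arrays and then in the high-score arrays alone the values were 0.87 and 0.59 for DBP, 0.79 and 0.60 for PER1, 0.38 and 0.43 for CRY2, and 0.27 and 0.41 for NR1D1. At 1 h, where 0.0% of all probes were called, the 9 differences ran between -0.33 for NR1D2 and 0.40 for CRY2 (limma adjusted p of 0.432 to 0.98), and none had an unadjusted p under 0.05, which 13.5% of all probes had. Those values differed between the kinds of array, with 0.77 in the low-score and -0.17 in the high-score arrays for DBP, 0.76 and 0.00 for PER1, 0.82 and -0.01 for CRY2, and 0.50 and -0.05 for NR1D1, so that the higher values came from replicate 1 alone. These contrasts share the same 2 untreated arrays, so their values are not independent of one another.

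ITGB4 cells and untreated cells did not differ by a called amount in any of the 9 probes, where 0.00713% of all probes, the ITGB4 probe itself, were called. The differences ran between -0.29 for BHLHE40 and 0.13 for PER1 (adjusted p of 1 in limma for each), with none at an unadjusted p under 0.05. The DBP value of -0.28 ± 0.32 came from 2 ITGB4 arrays at 220.6 and 537.0, which stood further apart than the arrays of any other group, and it was -0.55 against the untreated array of their own high-score kind. PER1 was detected on 1 of the 2 ITGB4 arrays. Between 24 h and 1 h, where 0.0% of all probes were called, no member was called either and none had an unadjusted p under 0.05 in limma, with differences between -0.12 and 0.43. By kind of array that contrast was 0.10 in low-score and 0.76 in high-score arrays for DBP, 0.03 and 0.61 for PER1, -0.44 and 0.44 for CRY2, and -0.22 and 0.46 for NR1D1.

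**Figure D3:**
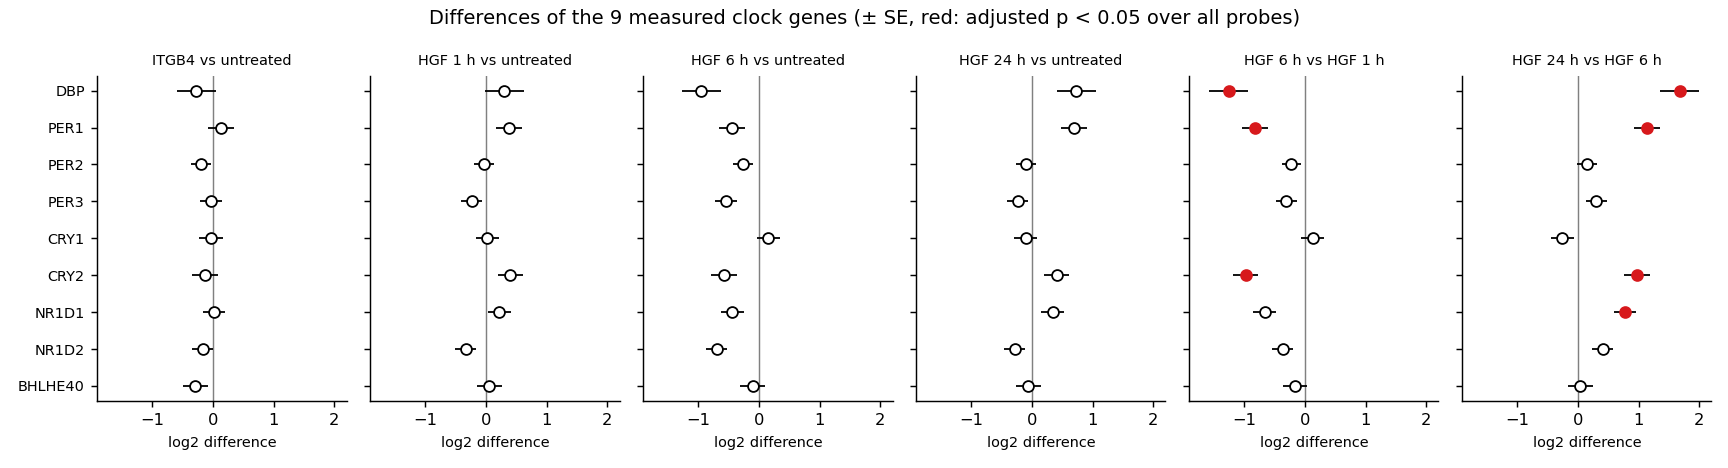
Log2 differences of the 9 measured clock genes (first-named group minus second, ± SE of the fit, 2 arrays per group) in 6 contrasts; red points passed an adjusted p of 0.05 over all 14018 probes. Red points appear only in the contrasts between HGF times, for DBP at -1.25 and 1.68, PER1 at -0.81 and 1.13, CRY2 at -0.97 and 0.98, and NR1D1 at 0.78.

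Over the 10 arrays DBP ran most closely with PER1 among the members, with Pearson's r of 0.96 and Spearman's rho of 0.96 on log2 signal, followed by NR1D1 (0.91 and 0.95) and CRY2 (0.88 and 0.89). The values for NR1D2, PER2, PER3 and BHLHE40 lay between 0.14 and 0.37 in r, and CRY1 ran the other way, at an r of -0.57. The arrays share their 5 groups and their 2 kinds of detection score, so these coefficients describe this set only.

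Among 1481 probes of other genes detected on at least 5 arrays and spanning at least 1 log2 unit, the 5 most like DBP over the 10 arrays were those of GFPT1 (r = 0.98), GPRC5B (0.97), SGSH (0.96), PER1 (0.96) and ZFYVE1 (0.95). GFPT1, the rate-limiting enzyme of the hexosamine pathway, read 879.3 and 968.8 at 24 h and 406.5 and 424.1 at 6 h. GPRC5B, an orphan receptor, read 758.5 and 860.0 at 24 h and 404.6 and 452.4 at 6 h. SGSH, a lysosomal sulfatase that degrades heparan sulfate, read 646.7 and 797.2 at 24 h and 340.9 and 414.1 at 6 h. In each of them the 6 h arrays were the lowest pair of the 10, as also for ZFYVE1, a zinc finger protein that binds a phosphoinositide, at 257.6 and 243.6. ITGB4 replicate 1 was the next lowest array in all 4, the same array that was low for DBP.

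**Figure D4:**
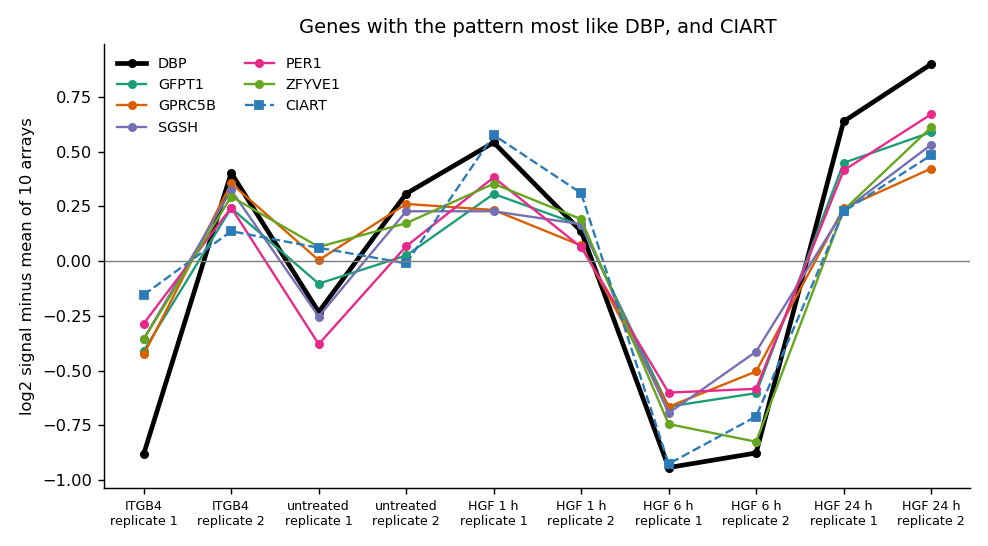
Log2 signal on each array minus the mean of the 10 arrays for DBP, the 5 genes closest to it by Pearson's r (0.95 to 0.98) and CIART (dashed). All lines are low on both 6 h arrays, and for DBP and the 5 genes ITGB4 replicate 1 is low and ITGB4 replicate 2 is not.

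Of 27 other clock genes listed by role, 20 had a detected probe, with 22 probes in all. Probes detected on no array were left out. Of the genes named below, TSC22D3 and FBXW11 were thus each read by 1 of 3 probes and CSNK1E by 1 of 2. Between 24 h and 6 h 3 of the 22 were called higher, 1 was called lower and 18 were not called, with a median of 0.07, where 4.24% of all probes were called higher and 4.07% lower. Between 6 h and 1 h none was called higher and 2 were called lower, with a median of -0.01, where 2.43% of all probes were called lower. At 6 h against untreated cells 1 was called in each direction, with a median of -0.05, where 0.97% of all probes were called higher and 0.935% lower. None was called in the other contrasts. The calls lay in 4 genes, CIART, TSC22D3, KLF9 and NOCT.

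CIART, a repressor of CLOCK and BMAL1 whose promoter window holds the 3 E-boxes printed above, was lowest at 6 h, as PER1 was. It read 152.0 and 185.9 on the ITGB4 arrays, 176.4 and 167.9 in untreated cells, 252.1 and 209.7 at 1 h, 89.0 and 103.4 at 6 h, and 197.9 and 236.5 at 24 h. The 6 h arrays were the lowest pair, 1 of them not detected. CIART fell by 0.84 ± 0.18 at 6 h against untreated cells (limma adjusted p = 0.032) and by 1.26 ± 0.18 against 1 h (0.00613), and it rose by 1.17 ± 0.18 between 24 h and 6 h (0.00261). With any 1 array left out, the difference at 6 h lay between -0.95 and -0.73 against untreated cells and between -1.39 and -1.13 against 1 h. The fall against untreated cells was not called without any 1 of the untreated or 6 h arrays, where most calls over all probes were lost too. The fall against 1 h was not called without 1 h replicate 1 or 6 h replicate 1. The rise was called without any 1 of the 10 arrays, with adjusted p up to 0.0252 in limma.

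NOCT, an output gene of the deadenylase family with a strong rhythm in mouse tissues, was highest at 6 h, where DBP was lowest. It read 188.6 and 184.6 in untreated cells, 276.1 and 244.2 at 1 h, 371.9 and 322.5 at 6 h, and 144.4 and 168.6 at 24 h. Both 6 h arrays were the highest of all. It rose by 0.89 ± 0.18 at 6 h against untreated cells (limma adjusted p = 0.0266) and fell by 1.15 ± 0.18 between 24 h and 6 h (0.00274). With any 1 array left out, the difference at 6 h against untreated cells lay between 0.79 and 0.995. That between 24 h and 6 h lay between -1.26 and -1.04, and this fall stayed called. The rise was not called without any 1 of the untreated or 6 h arrays, where most calls over all probes were lost too. With median scaling the rise was not called either (limma adjusted p = 0.0837).

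TSC22D3 and KLF9, both known glucocorticoid-induced genes with daily rhythms, rose between 24 h and 6 h. TSC22D3 read 250.3 and 179.7 in untreated cells, 333.6 and 171.9 at 1 h, 113.1 and 77.9 at 6 h, and 317.7 and 199.5 at 24 h. It fell by 1.35 ± 0.30 between 6 h and 1 h (limma adjusted p = 0.0267) and rose by 1.42 ± 0.30 between 24 h and 6 h (0.0127), but the fall was not called without 1 h replicate 1 (0.378) or either 6 h array (0.0683 and 0.166), and the rise not without 6 h replicate 2 (0.106) or 24 h replicate 1 (0.069). KLF9 read 580.7 and 615.0 in untreated cells, 397.7 and 514.3 at 1 h, 425.4 and 383.7 at 6 h, and 912.6 and 662.6 at 24 h. Its rise of 0.94 ± 0.19 between 24 h and 6 h (limma adjusted p = 0.00965) was not called without 6 h replicate 2 (0.0813) or 24 h replicate 1 (0.0588), and both its 1 h arrays were below both untreated arrays.

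The activators and the enzymes of the clock gave no calls. BMAL1 (ARNTL) read 312.8 and 326.2 at 6 h, below all 8 other arrays at 396.5 to 495.9, and differed by 0.46 ± 0.16 between 24 h and 6 h (limma adjusted p = 0.113). CLOCK, its partner, was named after its values were seen, and had the opposite sign, -0.62 ± 0.22 (limma adjusted p = 0.107). For the brightest gene of each further role the difference between 24 h and 6 h was 0.05 for NFIL3, the repressor at D-boxes, 0.43 for TIMELESS, 0.44 for the kinase gene CSNK1E, 0.21 for the ubiquitin ligase subunit gene FBXW11 and 0.23 for NAMPT, which encodes an enzyme of NAD synthesis, with limma adjusted p of 0.18 to 0.964.

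**Figure D5:**
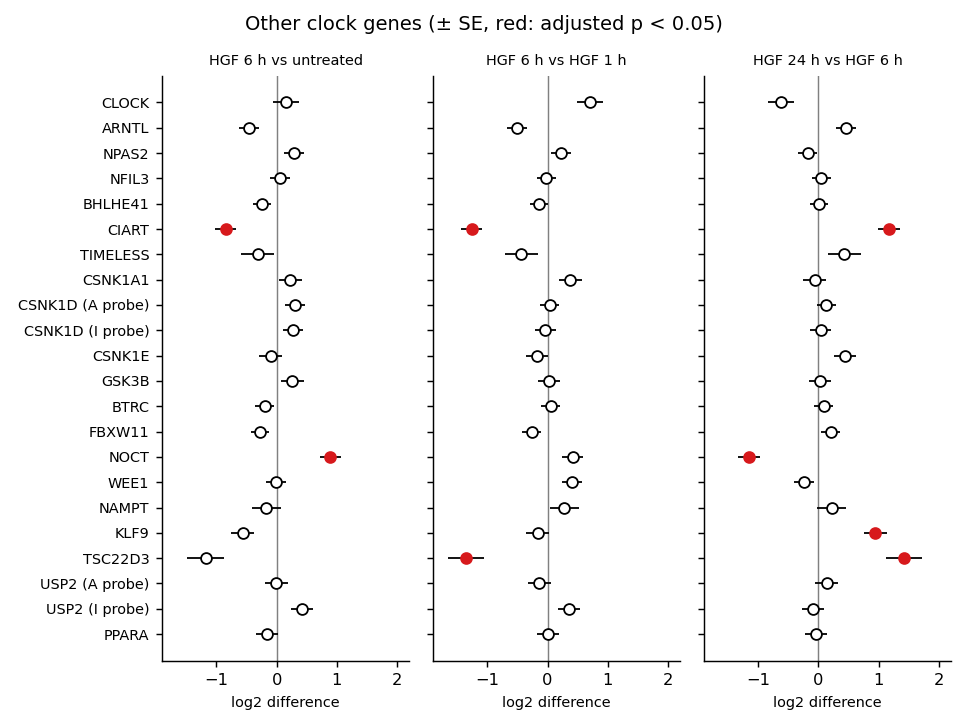
Log2 differences (first-named group minus second, ± SE of the fit, 2 arrays per group) of the 22 detected probes of other clock genes in 3 contrasts; red points passed an adjusted p of 0.05 over all 14018 probes. CIART is red in each, at -0.84, -1.26 and 1.17, NOCT has the opposite sign in each, and most points lie near 0.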

How the data were processed

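Total RNA of 10 samples had been labelled and hybridised to bead arrays. The authors deposited, for each array, probe intensities on a linear scale (BeadStudio 1.5.1.3, per the submitters' processing notes), neither background subtracted nor normalised, a detection score given as a fraction between 0 and 1, and bead counts. A deposited value table held background-subtracted, rank-invariant normalised intensities, and was used as an alternative, with values floored at 12.6. Its ITGB4 replicate 2 column did not match the scanner intensities of that sample.

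Of 24136 probes, 22 controls and 9 with a missing value were set aside. Intensities were quantile normalised without background subtraction, so ratios near the detection limit are compressed, and log2 transformed with no offset. The 14018 probes with a detection score of at least 0.99 on 1 or more arrays entered 1 limma 3.58.1 fit (R 4.3.3) of 5 group means (residual degrees of freedom 5, prior 8.16), with two-sided moderated tests and Benjamini-Hochberg adjustment. The procedure was tested on simulated data with independent noise on each array, which did not hold the shared deviations of same-numbered arrays. "At least" folds set a group not detected on both arrays at the lowest detected signal of each array where that was higher. The number of arrays limits the precision. Gene names came from the platform annotation, updated through Entrez numbers; 5347 probes had none. Groups came from the sample labels. Members, lists and tests were chosen with earlier results of these data known. Named genes were all members, other clock genes that were called or brightest in their role, ITGB4, and the 5 probes most correlated with DBP. Alternatives were normexp background correction (offset 50), median scaling, the value table, a floor, 2 other filters, 2 blocks, fits of the 2 groups alone, a test without moderation and leaving out each array.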

Additional observations from a re-analysis of the deposited data

Results flagged for a closer look

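Differences between HGF times passed the test for 4 clock genes. Between 24 h and 6 h, where 8.31% of all probes were called, the log2 difference was 1.68 for DBP, 1.13 for PER1, 0.98 for CRY2 and 0.78 for NR1D1. Between 6 h and 1 h, where 4.67% of all probes were called, it was -1.25 for DBP, -0.81 for PER1 and -0.97 for CRY2. Each was tested as a contrast of the 2 times in limma, and the genes had been chosen with these signals known. None of these calls was left with the floor at the detection limit or without variance moderation. Calls over all probes under those settings are not given here for these contrasts. At 6 h against untreated cells they numbered 200 with the floor and 0 without moderation, against 267 in the reported fit.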

How the results depend on the processing

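Under 20 alternatives, in the 3 contrasts with a clock gene called in any of them, 17 of 60 counts of called clock genes moved by more than 1.5 times. In the other 4 contrasts no clock gene was called under any alternative, which says nothing of stability. Of 300 tested values of called differences under other settings, members and other clock genes together, 71 were no longer called, and none of those differences changed its sign. The reported counts were 0 at 6 h against untreated cells, 3 between 6 h and 1 h, and 4 between 24 h and 6 h, where 1.9%, 4.67% and 8.31% of all probes were called. Calls over all probes changed with the setting too. At 6 h against untreated cells they numbered 267 as reported, 407 with detection required on both arrays of a group, 1066 with the kind of array as a block and 0 without moderation. The member counts that follow therefore do not set members apart from other probes. At 6 h against untreated cells the count was 1 with detection required on both arrays of a group, 2 with the kind of array as a block, and 0 to 1 without single arrays. Between 6 h and 1 h it was 0 with the floor, 1 with no detection filter, 0 without variance moderation, and 0 to 4 without single arrays. Between 24 h and 6 h it was 0 with the floor, 0 without moderation, and 2 to 4 without single arrays. In a fit of the 2 groups alone NR1D1 was not called between 24 h and 6 h (limma adjusted p = 0.0616).

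Replicate numbers were not treated as pairs. Deviations of same-numbered arrays correlated at -0.06 to 0.66 over 10 group pairs, 8 of them above 0.1. With the replicate block 3 members were called at 6 h against untreated cells, NR1D2 (limma adjusted p = 0.0135), DBP (0.0328) and PER3 (0.0368), between 6 h and 1 h NR1D1 was called as well (0.0145), in a fit that called 13.3% of all probes, and at 6 h against untreated cells calls over all probes numbered 1089, against 267 without the block. PER1, PER2, CRY2, NR1D1 and NR1D2 lay close to or under the detection limit at 6 h, which limits what the arrays can show of their levels there.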
